A study of Mus musculus with 10 samples.

Results

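ZBTB38 (CIBZ) is a BTB zinc finger transcription factor that binds methylated CpG sites. The genes followed here are those reported to set its protein level, to act with it or to lie downstream of it: Rbbp6, Usp9x, Ctbp1, Ctbp2 and Mcm10. These 5 genes, of 22380 in the deposited data, were chosen by their reported link to ZBTB38 and matched by gene symbol, a rule that uses no measured value. The choice was still made with earlier results of these data known. All 5 passed the filter on low counts in every comparison.

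RBBP6 is a RING-type ubiquitin ligase that marks ZBTB38 for degradation and also belongs to the machinery that forms the 3′ ends of mRNAs. USP9X is a deubiquitinase that removes such marks and stabilizes ZBTB38. CtBP1 and CtBP2 are corepressors that DNA-bound factors, ZBTB38 among them, bring to chromatin. MCM10 is a replication initiation factor that works with the MCM2-7 helicase, and ZBTB38 has been reported to repress its gene, so that RBBP6, USP9X, ZBTB38 and MCM10 have been placed in one pathway of DNA replication and genome stability. Germinal center B cells divide rapidly and undergo mutation and DNA breaks.

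RNA was sequenced from germinal center B cells that bind NP, sorted as GL7+ IgD- cells from C57Bl6/N mice immunized with NP-OVA in alum. ZBTB38 WT mice (Zbtb38fl/fl, no Cre, n = 2) carried floxed alleles only, ZBTB38 HET mice (Zbtb38fl/+ x Vav-Cre, n = 2) could lose one allele, and ZBTB38 KO mice (Zbtb38fl/fl x Vav-Cre, n = 6) could lose both. The floxed exon 3 holds the whole coding sequence, Vav-Cre acts mainly in hematopoietic cells and so before the B cell stage, and the floxed line goes back to targeted C57Bl6/J zygotes. Since ZBTB38 WT mice lack Cre, the effects of Cre and of the lost alleles cannot be told apart in comparisons with them. Age and sex are not given in the labels, and each library came from one mouse.

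The libraries held between 26612431 and 41059082 estimated counts. The germinal center B cell marker Bcl6 was detected in every library, at 59.3 TPM or more. The following features of the libraries touch the results below. First, 4 Y-linked genes together lay at 109.8 and 155.7 TPM in the ZBTB38 WT libraries, at 0.640 and 0.487 TPM in the ZBTB38 HET libraries and above 10 TPM in 3 of 6 ZBTB38 KO libraries (replicates 1, 2 and 5). Second, ZBTB38 KO replicate 6 had the lowest median correlation with the other libraries (0.948) and replicate 1 the next lowest (0.967), against 0.9752 to 0.9814 for the other 8.

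Zbtb38 itself was measured first, as a check of the labels. It was at 163.6 and 152.1 TMM-normalized CPM (counts scaled to library size) in ZBTB38 WT, at 117.3 and 105.5 CPM in ZBTB38 HET, and between 18.5 and 50.1 CPM in ZBTB38 KO, with a median of 30.4 CPM. The genotypes did not overlap and followed the labels. In ZBTB38 KO the gene was at 0.202 times the ZBTB38 WT level (log2 fold change -2.31, SE 0.274, edgeR adjusted p = 0.0734) and at 0.236 times the level of WT and HET together (log2 fold change -2.08, SE 0.232, edgeR adjusted p = 0.0104). In TPM the KO median was 23.6, but KO replicate 2 was at 46.1, near the HET libraries at 49.6. These values are sums over all transcripts of the gene. The paper reports complete loss in KO of transcripts within the floxed exon, which holds the whole coding sequence. Whether any of the signal left in KO came from coding mRNA was not tested.

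The genes lie on 4 chromosomes in the Gencode annotation of GRCm38. Rbbp6 (ENSMUSG00000030779.15 in the files) is on the plus strand at chr7:122965686-123002557, Ctbp2 (ENSMUSG00000030970.16) on the minus strand of the same chromosome at chr7:132987563-133124354, Ctbp1 (ENSMUSG00000037373.12) on the minus strand at chr5:33247723-33274994 and Mcm10 (ENSMUSG00000026669.14) on the minus strand at chr2:4989714-5012791. Usp9x (ENSMUSG00000031010.17) is on the X chromosome, plus strand, at chrX:13071498-13173328. Because ZBTB38 binds methylated CpG and Mcm10 is its reported target, the 250 bases before the RefSeq start of Mcm10 are shown, with those of Ctbp1, the most abundant of the 5 genes, and of the RIBEYE start of Ctbp2, whose transcript was listed at 0 in every library. They are from GRCm38.p6, all on the minus strand, written 5′ to 3′ with each CG dinucleotide, the same letters on both strands, in capitals.
Mcm10 (chr2:5012792-5013041): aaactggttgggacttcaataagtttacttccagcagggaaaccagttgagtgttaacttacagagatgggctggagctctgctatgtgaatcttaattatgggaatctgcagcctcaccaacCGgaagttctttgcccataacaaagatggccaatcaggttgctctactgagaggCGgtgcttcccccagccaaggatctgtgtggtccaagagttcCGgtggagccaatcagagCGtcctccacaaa
Ctbp1 (chr5:33275005-33275254): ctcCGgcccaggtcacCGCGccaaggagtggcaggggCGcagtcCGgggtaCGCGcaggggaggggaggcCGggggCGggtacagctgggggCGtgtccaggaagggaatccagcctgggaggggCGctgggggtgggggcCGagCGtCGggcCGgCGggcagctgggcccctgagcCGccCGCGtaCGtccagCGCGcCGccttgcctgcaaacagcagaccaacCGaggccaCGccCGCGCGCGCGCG
Ctbp2, RIBEYE start (chr7:133015248-133015497): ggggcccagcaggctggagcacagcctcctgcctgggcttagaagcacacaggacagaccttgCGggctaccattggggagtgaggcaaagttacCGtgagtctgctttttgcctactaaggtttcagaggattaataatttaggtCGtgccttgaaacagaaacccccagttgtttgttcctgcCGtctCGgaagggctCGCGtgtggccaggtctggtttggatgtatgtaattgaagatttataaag

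The Mcm10 window holds 4 CG dinucleotides, and 62.2% of the 32851 RefSeq promoter windows of this length hold at least as many (median 6). The Ctbp1 window holds 31, reached by 5.19% of windows, and that of Rbbp6 holds 29, reached by 6.78%. The RIBEYE window of Ctbp2 holds 7, reached by 46.3%, and a further RefSeq start of Ctbp2, not shown, has 2, reached by 81.2%. Neither lies at the start of the transcript that carried most Ctbp2 reads. Methylation was not measured in these samples, so these are counts of letters in the reference sequence. The Mcm10 and Rbbp6 windows end at the start of their main quantified transcripts, ENSMUST00000027980.7 and ENSMUST00000052135.13. Of the 5 genes, 4 were matched in the RefSeq table; Usp9x was not matched.

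Levels were compared between genes in TPM, which accounts for transcript length. Ctbp1 was by far the most abundant of the 5, with a median of 231.7 TPM over the 10 libraries, which placed its mean at percentile 94.1 of the 13347 genes tested in all comparisons. Mcm10 followed at a median of 32.6 TPM (percentile 67.3), Rbbp6 at 20.7 TPM (percentile 56.3) and Usp9x at 18.4 TPM (percentile 54.2). Ctbp2 was near the lower end at 0.677 TPM (percentile 16.1).

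The order was the same in most libraries. Ctbp1 exceeded Mcm10 in 10 of 10 libraries, by 7.38-fold in the median library, and Mcm10 exceeded Rbbp6 in 10 of 10, by 1.66-fold, although the ranges of these genes over the libraries overlapped. Rbbp6 exceeded Usp9x in only 7 of 10 libraries, with a median ratio of 1.12. This near equality holds for the gene sums, in which short partial transcripts make up much of the Usp9x TPM: the full-length Usp9x transcript held 34.4% of the gene's TPM but 81.6% of its counts on average, and a 523-base fragment held 26.4% of the TPM. Between full-length transcripts, Rbbp6 exceeded Usp9x in 10 of 10 libraries, by 2.51-fold in the median and from 1.45-fold to 5.83-fold. Usp9x exceeded Ctbp2 in 10 of 10 libraries, by 20.9-fold in the median. The coefficient of variation of TPM over the libraries was 14.8% for Ctbp1, 18.9% for Rbbp6, 25.0% for Mcm10, 34.4% for Usp9x and 67.8% for Ctbp2.

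**Figure D1:**
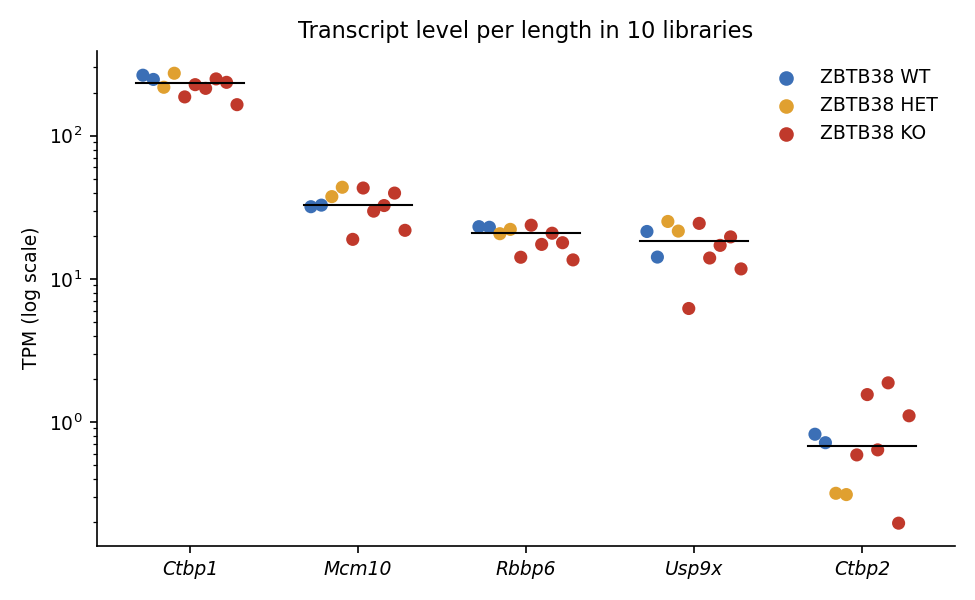
Level of each gene in TPM (log scale) in the 10 libraries, colored by genotype, with the median as a line. Ctbp1 lies highest at 165 to 273 TPM and Ctbp2 lowest at 0.196 to 1.88 TPM. Rbbp6 (13.6 to 23.7 TPM) and the more variable Usp9x (6.20 to 25.2 TPM) overlap.

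Among the regulators of ZBTB38 protein, Rbbp6 was at 96.6 and 94.7 CPM in ZBTB38 WT and at 77.9 and 88.3 CPM in ZBTB38 HET. In the 6 ZBTB38 KO libraries it ranged from 68.2 to 92.7 CPM, with a median of 80.2 CPM. Every ZBTB38 KO library lay below both ZBTB38 WT libraries and the HET libraries lay within the KO range, but the gap between the highest KO and the lowest WT library was small. The fitted level in KO was 0.834 times that in WT (95% confidence interval 0.660 to 1.05, log2 fold change -0.26, SE 0.152, edgeR adjusted p = 0.999), and a difference between these genotypes was not detected.

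Usp9x varied far more between mice of the same genotype. It was at 83.3 and 56.5 CPM in ZBTB38 WT, at 94.3 and 88.7 CPM in ZBTB38 HET, and from 29.0 to 91.5 CPM in ZBTB38 KO, with a median of 55.9 CPM. The HET libraries were high and close together, while the KO libraries spanned the whole range from the lowest value to one within 3 CPM of the highest. The fitted level in KO was 0.782 times that in WT (95% confidence interval 0.435 to 1.40, log2 fold change -0.36, SE 0.382, edgeR adjusted p = 0.999). Leaving out a single library moved this log2 value between -0.06 (without WT replicate 1) and -0.60 (without WT replicate 2), with -0.57 without KO replicate 2. Against WT and HET together the fitted level in KO was 0.675 times the control level (95% confidence interval 0.439 to 1.04, log2 fold change -0.57, SE 0.287, edgeR adjusted p = 0.744). This last interval covers a fall to less than 0.5 of the control level as well as no change.

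Mcm10, the reported target of ZBTB38 repression, was at 80.0 and 79.6 CPM in ZBTB38 WT. It was at 95.7 and 108.4 CPM in ZBTB38 HET and from 59.1 to 104.7 CPM in ZBTB38 KO, with a median of 80.0 CPM. The WT libraries thus fell in the middle of the KO libraries, and the HET libraries lay at the upper end. The fitted level in KO was 1.03 times that in WT (95% confidence interval 0.727 to 1.46, log2 fold change 0.04, SE 0.228, edgeR adjusted p = 0.999), so a rise above 1.46-fold lies outside the interval. Against WT and HET together it was 0.902 times the control level (95% confidence interval 0.693 to 1.17, log2 fold change -0.15, SE 0.176, edgeR adjusted p = 0.859). The sign of the difference from WT turned under other processing, to -0.12 in limma on log2(TPM + 1), where the median over all genes was itself at -0.11.

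Of the corepressors, Ctbp1 was at 357.2 and 343.1 CPM in ZBTB38 WT, at 309.1 and 379.9 CPM in ZBTB38 HET and from 280.2 to 357.0 CPM in ZBTB38 KO, with a median of 329.2 CPM. The genotypes overlapped throughout, and the fitted level in KO was 0.930 times that in WT (95% confidence interval 0.768 to 1.13, log2 fold change -0.10, SE 0.125, edgeR adjusted p = 0.999). Among the 5 genes this was the narrowest interval for KO against WT.

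Ctbp2 rested on few reads. It had 49.5 and 33.5 estimated counts in ZBTB38 WT, 16.0 and 11.0 in ZBTB38 HET and 12.7 to 66.0 in ZBTB38 KO. In CPM these were 1.21 and 1.18, then 0.509 and 0.397, then 0.438 to 2.12 with a median of 1.52. Both HET libraries were low, but so was 1 KO library (replicate 5), and 3 KO libraries lay above both WT libraries. The fitted level in KO was 3.17 times that in HET (95% confidence interval 0.945 to 10.6, log2 fold change 1.66, SE 0.798, edgeR adjusted p = 0.511) and 1.22 times that in WT (95% confidence interval 0.389 to 3.81). The 5 naive B cell markers were low in the HET libraries and in KO replicate 5, where Ctbp2 was low, with summed levels of 279 and 325 TPM in HET and 332 TPM in that KO library. They were higher in WT, at 577 and 674 TPM, and in KO replicates 4 and 6, at 694 and 723 TPM, where Ctbp2 was at 2.02 and 1.97 CPM, but were at 325 TPM in KO replicate 1, with Ctbp2 at 1.05 CPM. KO replicate 2, with Ctbp2 at 2.12 CPM, was at 501 TPM, below both WT libraries. KO replicate 3, with Ctbp2 at 1.07 CPM, was at 429 TPM. The 5 myeloid markers summed to 62.2 and 74.9 TPM in HET, 466.4 and 544.8 TPM in WT and 59.8 to 817 TPM in KO, with 74.2 TPM in KO replicate 2, where Ctbp2 was highest. The 7 T cell markers lay at 149 to 156 TPM in HET, 287 TPM in both WT libraries and 137 to 210 TPM in KO. No marker of these lists was at 0 in every library of a genotype, and the part of such cells in the Ctbp2 values was not tested. In sorted bulk samples, fewer cells of a type and less RNA per cell cannot be told apart.

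**Figure D2:**
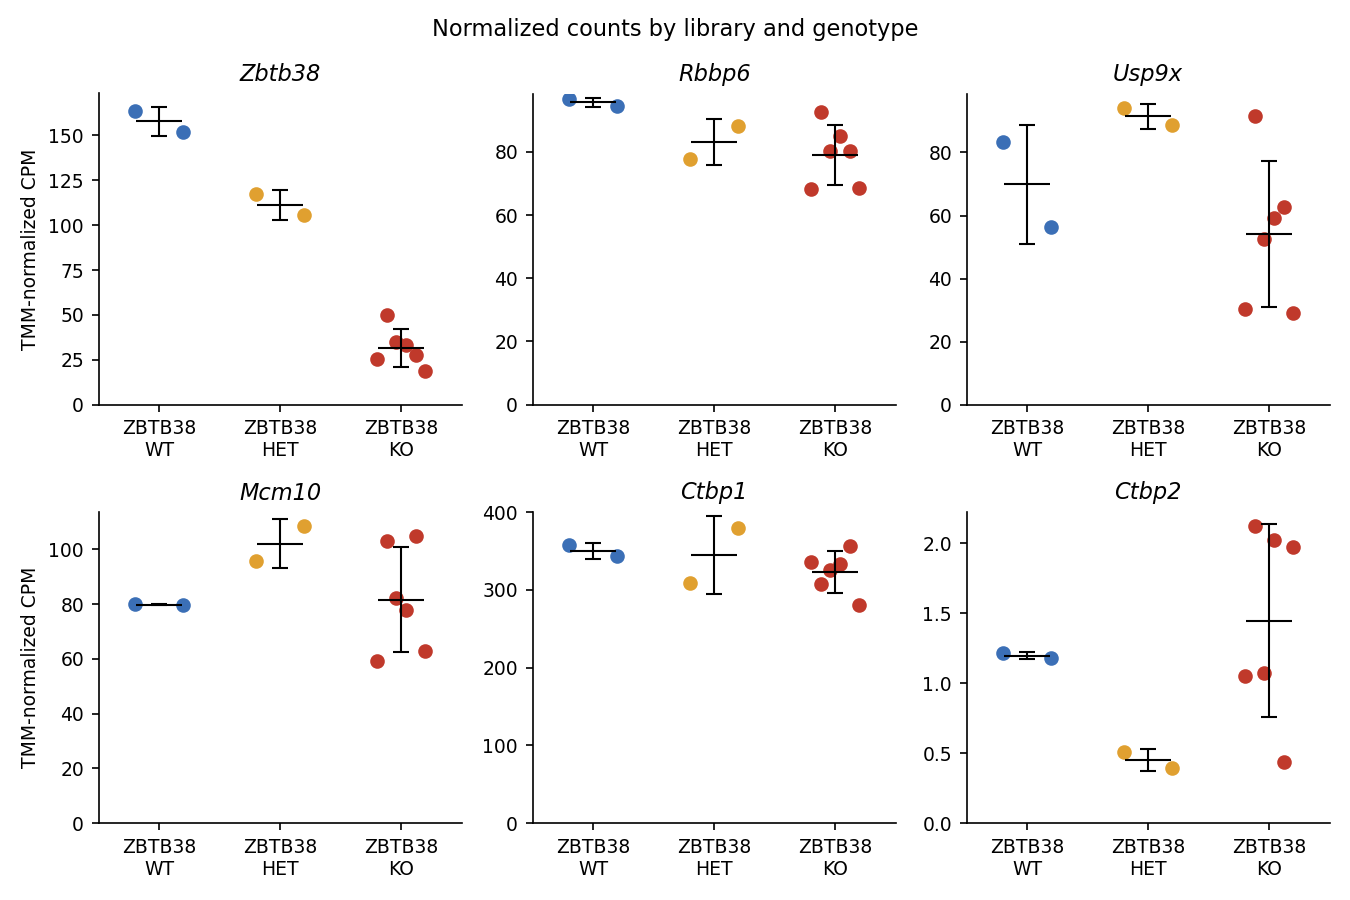
TMM-normalized CPM of Zbtb38 and the 5 genes in each library, by genotype (WT n = 2, HET n = 2, KO n = 6), with mean and SD. Zbtb38 steps down from WT to HET to KO without overlap, whereas the KO libraries of Usp9x (29.0 to 91.5 CPM) and Mcm10 (59.1 to 104.7 CPM) spread across the controls.

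None of the 5 genes was called between ZBTB38 KO and WT. At an edgeR adjusted p under 0.1, 0.00704% of all 14203 genes tested were called (1 gene, Zbtb38), and none of the 5 had an unadjusted p under 0.05, against 2.19% of all genes. Rbbp6 was the 1 gene of the 5 whose KO and WT ranges did not overlap, against 6.62% of all genes. Of the 5, 2 had higher and 3 had lower fitted levels in KO, with a median log2 fold change of -0.10 against 0.01 over all genes. DESeq2 called none of the 5 either, with 0 at an unadjusted p under 0.05, against 425 of all 14203 genes in DESeq2.

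Between ZBTB38 KO and the 4 control libraries, which include the same ZBTB38 WT mice, 0 of 5 were called, against 0.00749% of 13347 genes. None had an edgeR p under 0.05, against 6.3% of all genes, and the ranges of all 5 overlapped, against 1.56% of genes whose ranges did not. In DESeq2, 1 of the 5, Usp9x, had an unadjusted p under 0.05 (DESeq2 adjusted p = 0.597), against 1058 of all 13347 genes in DESeq2. The median log2 fold change of the 5 was -0.15, against 0.02 over all genes.

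ZBTB38 KO and HET mice both carry Vav-Cre. Here too 0 of 5 genes were called by edgeR, against 0.00697% of 14354 genes, and 0 of 5 had a p under 0.05, against 10.2% of all genes. No range failed to overlap, against 13.9% of genes. The largest differences were in Ctbp2, given above, and in Usp9x, at 0.592 times the HET level (95% confidence interval 0.346 to 1.01, log2 fold change -0.76, SE 0.354, edgeR adjusted p = 0.501). DESeq2 put both under an unadjusted p of 0.05 with adjusted p-values of 0.275 for Ctbp2 and 0.327 for Usp9x. In DESeq2 1879 of all 14354 genes had an unadjusted p under 0.05 in this comparison. Zbtb38 itself was at 0.284 times the HET level (log2 fold change -1.82, SE 0.261, edgeR adjusted p = 0.128). This comparison thus did not call the deleted gene either.

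Between ZBTB38 HET and WT, 0 of 5 genes were called, against 0.00697% of 14354 genes, and 0 had an edgeR p under 0.05, against 6.42% of all genes. The ranges of 4 of the 5 did not overlap, with Usp9x and Mcm10 higher in HET and Rbbp6 and Ctbp2 lower, but with 2 libraries against 2 the ranges of 47.5% of all genes did not overlap either. Mcm10 was at 1.29 times the WT level in HET (95% confidence interval 0.864 to 1.92, log2 fold change 0.37, SE 0.264, edgeR adjusted p = 0.886). Usp9x was at 1.32 times (95% confidence interval 0.666 to 2.62), Rbbp6 at 0.876 times (0.668 to 1.15), Ctbp1 at 0.992 times (0.785 to 1.25) and Ctbp2 at 0.385 times the WT level (0.0989 to 1.5). Zbtb38 was at 0.712 times the WT level in HET (95% confidence interval 0.422 to 1.20, edgeR adjusted p = 0.873) and was not called either.

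**Figure D3:**
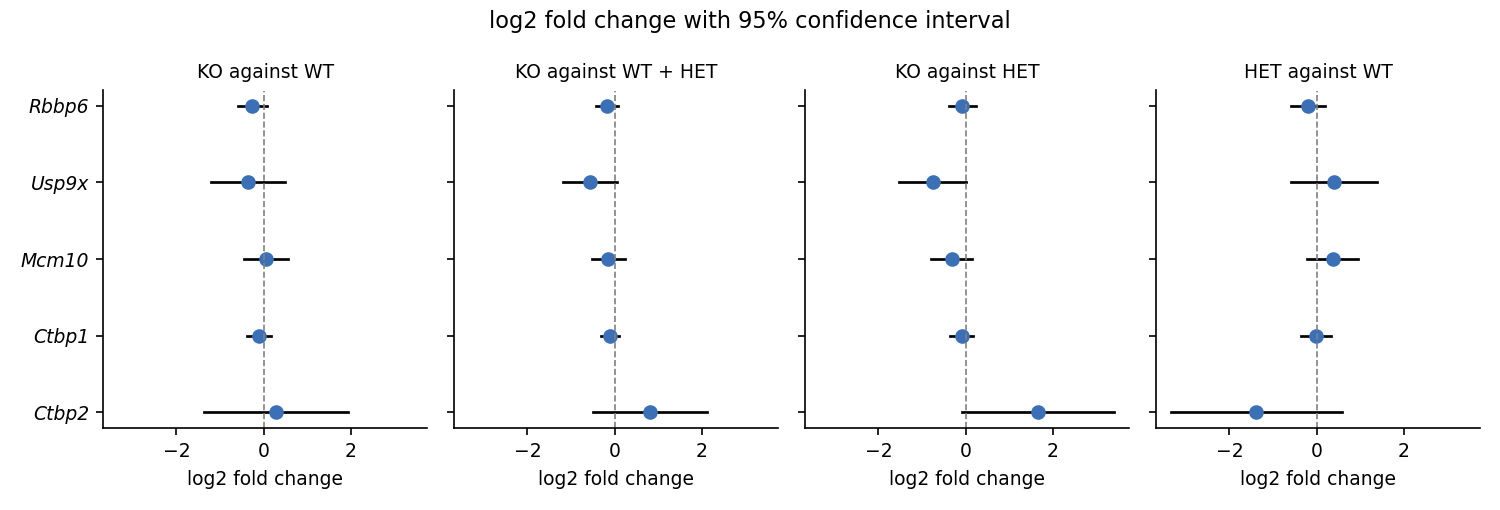
log2 fold change (first group over second) of the 5 genes in the 4 comparisons, with 95% confidence intervals from edgeR. Every interval crosses 0, that of Ctbp1 is narrow (-0.38 to 0.17 between KO and WT) and that of Ctbp2 wide (-1.36 to 1.93).

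Because Usp9x is X-linked, its values were set beside the Y-linked transcripts. In libraries with Y-linked transcripts above 10 TPM, Usp9x was at 56.5 and 83.3 CPM in ZBTB38 WT and at 30.3, 62.7 and 91.5 CPM in ZBTB38 KO, which overlap. In libraries without them it was at 88.7 and 94.3 CPM in ZBTB38 HET and at 29.0, 52.6 and 59.3 CPM in ZBTB38 KO, which do not. All ZBTB38 WT libraries belong to the first class and all HET libraries to the second, so the HET genotype and the class cannot be told apart against WT. With a term for the class, a choice made after the data were seen, the log2 fold change of Usp9x between KO and all controls was -0.58 (SE 0.302, edgeR adjusted p = 0.806). The same term moved other contrasts further: for Usp9x to -0.97 between KO and HET (SE 0.401, edgeR adjusted p = 0.404) and to 0.80 between HET and WT (SE 0.575), and for Mcm10 to 0.63 between HET and WT (SE 0.334, edgeR adjusted p = 0.630). The X-linked genes Kdm6a, Ddx3x, Eif2s3x and Kdm5c, which have Y-linked partners, summed to 238 to 273 TPM in HET, 136 to 153 TPM in WT and 70.4 to 196 TPM in KO. Within KO this sum followed the class. Replicates 3, 4 and 6, without Y-linked transcripts, each had a higher sum than replicates 1, 2 and 5, with them. Both HET libraries, also without them, lay above all KO libraries. The parts of class and genotype in these sums were not tested.

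Rbbp6, Usp9x and Mcm10 had their lowest values in the same ZBTB38 KO libraries, replicates 1 and 6. In replicate 1 these were 68.2 CPM for Rbbp6, 30.3 CPM for Usp9x and 59.1 CPM for Mcm10, and in replicate 6 they were 68.5, 29.0 and 63.0 CPM. Ctbp1 was lowest in replicate 6 (280.2 CPM) but not in replicate 1 (336.0 CPM). With both libraries left out, a choice made after the data were seen, the log2 fold change between KO and all controls was -0.26 for Usp9x (SE 0.193), -0.07 for Rbbp6 (SE 0.103) and 0.03 for Mcm10 (SE 0.137), with edgeR adjusted p-values between 0.992 and 0.997.

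These libraries also differed in how much long mRNA they held. The main quantified transcript is 11887 bases long for Usp9x, 6184 for Rbbp6, 3494 for Mcm10, 2436 for Ctbp1 and 1997 for Ctbp2. Over 607 genes whose main transcript has at least 6000 bases and 3167 with at most 2000, all with a mean of at least 10 CPM, the median log2 deviation from the mean over libraries was compared within each library. Long genes minus short genes gave 0.15 and 0.17 in ZBTB38 WT and 0.28 and 0.39 in ZBTB38 HET. In ZBTB38 KO replicates 1 to 6 it gave -0.70, 0.24, -0.27, 0.17, -0.08 and -0.33. The 3 lowest libraries, KO replicates 1, 6 and 3, were also the 3 lowest for Usp9x. The part of this library difference in the Usp9x, Rbbp6 and Mcm10 values was not tested. Counts scaled for the length of the transcripts used within each gene, which do not correct it, gave a log2 fold change for Usp9x of -0.34 (SE 0.256) between KO and all controls and -0.11 (SE 0.336) between KO and WT, for Rbbp6 -0.21 (SE 0.109) and -0.25 (SE 0.152), and for Mcm10 -0.15 (SE 0.173) and 0.04 (SE 0.225).

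**Figure D4:**
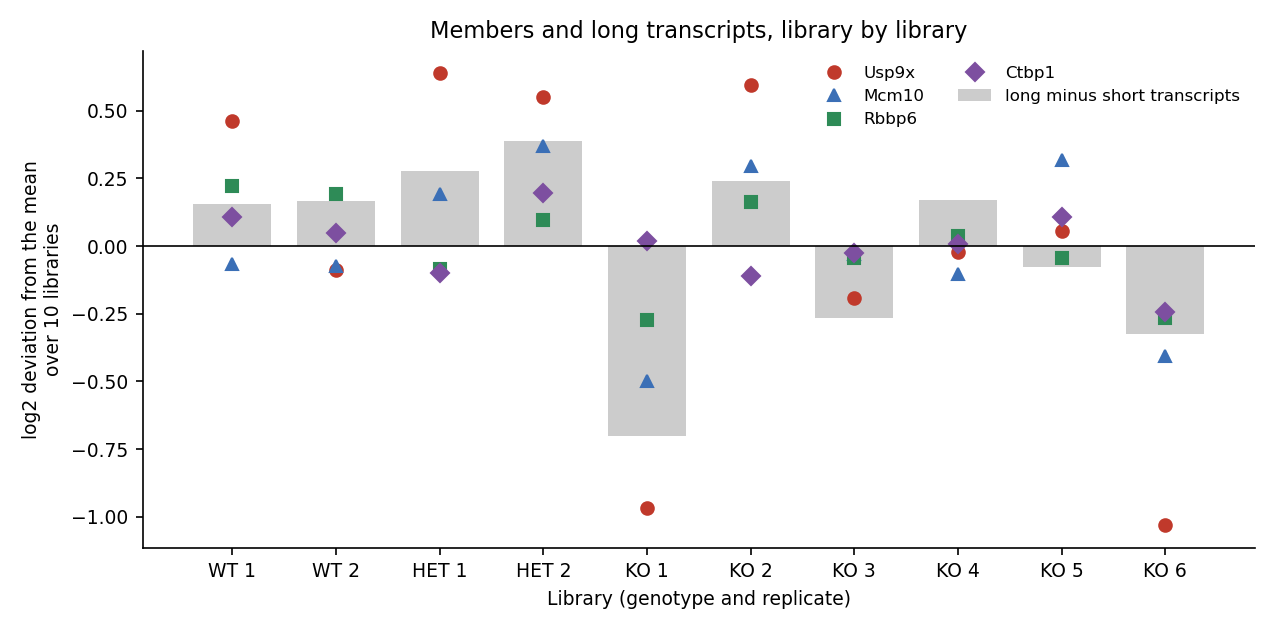
Gray bars give, per library, the median log2 deviation of long minus short transcripts from the mean over 10 libraries, and symbols the deviation of log2(CPM + 1) for Usp9x, Mcm10, Rbbp6 and Ctbp1. KO replicates 1 and 6 hold the lowest bars (-0.70 and -0.33) and the lowest Usp9x, Mcm10 and Rbbp6 values.

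Across the 10 libraries, log2(CPM + 1) of Usp9x and Mcm10 had a Pearson r of 0.863 (permutation test, p = 0.00135, adjusted p = 0.0135 over the 10 pairs of genes) and a Spearman rho of 0.745 (p = 0.0178, adjusted p = 0.178). Without KO replicates 1 and 6, the libraries farthest from the median of Usp9x, r was 0.576 (n = 8). Rbbp6 and Usp9x, the ligase and the deubiquitinase, had a Pearson r of 0.751 (permutation test, p = 0.0125, adjusted p = 0.0622) and a Spearman rho of 0.418 (p = 0.232, adjusted p = 0.464), and r fell to 0.177 without the same libraries, so this relation rests on them. Within the 6 KO libraries, which include replicates 1 and 6, r was 0.921 for Usp9x and Mcm10 (Spearman rho 0.829) and 0.980 for Rbbp6 and Usp9x (rho 0.771). No other pair had an adjusted p under 0.222 for Pearson's r.

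The ratio of ligase to deubiquitinase mRNA was compared within each library. Rbbp6 over Usp9x in TPM was 1.08 and 1.62 in ZBTB38 WT, 0.821 and 1.03 in ZBTB38 HET, and 0.911 to 2.28 in ZBTB38 KO. The mean log2 ratio was 0.303 ± 0.470 (SD, n = 6) in KO and 0.140 ± 0.406 (SD, n = 4) in the controls, a difference of 0.16 that was within the spread between libraries (two-sided exact permutation test, p = 0.605). In CPM the difference was 0.48 (exact permutation test, p = 0.143). For the corepressors, Ctbp1 over Ctbp2 was 323 and 345 in WT, 687 and 879 in HET and 133 to 1202 in KO. The mean log2 ratio was 8.07 ± 1.21 (SD, n = 6) in KO and 8.99 ± 0.720 (SD, n = 4) in the controls (difference -0.92, exact permutation test, two-sided p = 0.214). Between KO and WT the difference was -0.32 (exact permutation test, p = 0.857). Without KO replicate 5, the library with the highest ratio, the difference between KO and all controls was -1.36 (exact permutation test, p = 0.0476, adjusted p = 0.0952), which passes the threshold of 0.1. That was 1 of 10 refits with a library left out. The ratio rests on 11.0 to 66.0 estimated counts of Ctbp2 per library, lowest in HET replicate 2. With all 10 libraries this design could reach p = 0.00476 in an exact permutation test.

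Mcm10 was also set against the helicase it works with. Its TPM was 10.5% and 12.1% of the geometric mean of Mcm2 to Mcm7 in ZBTB38 WT, 11.2% and 12.3% in ZBTB38 HET and 9.57% to 14.4% in ZBTB38 KO, and all 3 genotypes overlapped. The 31 other replication initiation genes summed to 2667 and 2531 TPM in KO replicates 1 and 6, where Mcm10 TPM was also lowest, and to between 3145 and 4002 TPM in the other libraries, with both HET libraries highest. The proliferation markers summed to 1348 and 1382 TPM in HET, 1032 and 1163 TPM in WT and 982 to 1349 TPM in KO.

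Each gene had few transcripts that carried its TPM. For Mcm10, ENSMUST00000027980.7 held 92.2% ± 2.65 (SD, n = 6) of the TPM in ZBTB38 KO and 89.99% ± 1.13 (SD, n = 4) in the controls. Ctbp1 was split between a long form of 442 codons with the stop (ENSMUST00000079746.9, 40.9% ± 1.51 in KO and 39.4% ± 1.68 in controls) and a form of 430 codons (ENSMUST00000202868.3, 41.3% ± 2.33 and 41.7% ± 3.48). The full-length Rbbp6 transcript ENSMUST00000052135.13, of 1791 codons, held 72.3% ± 1.87 in KO and 72.8% ± 6.5 in controls. These shares moved by less than the spread between libraries.

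Ctbp2 had 13 quantified transcripts, of which 9 were listed at 0 in every library. These include ENSMUST00000169570.7, which encodes the long RIBEYE form known from ribbon synapses, and ENSMUST00000033269.14, of 446 codons. The reads that remained were assigned mainly to ENSMUST00000166439.7, of 421 codons, with 68.4% ± 20.9 (SD, n = 6) of the TPM in KO and 80.9% ± 15.0 (SD, n = 4) in controls. With at most 45.7 estimated counts behind it in any library, this share could not be followed closely.

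The full-length Usp9x transcript ENSMUST00000089302.10, of 11887 bases, held 31.0% ± 9.07 (SD, n = 6) of the gene's TPM in KO and 39.5% ± 2.79 (SD, n = 4) in controls (two-sided exact permutation test, p = 0.1). It was at 14.8% in KO replicate 6, against 27.2% to 42.2% in the other 9 libraries. The shorter ENSMUST00000133997.3, of 1452 bases, held 21.3% ± 5.76 in KO and 13.9% ± 2.74 in controls, a difference of 7.37 percentage points (two-sided exact permutation test, p = 0.0381, adjusted p = 0.419). It held 4.89% of the gene's counts on average, and on shares of counts the difference was 2.87 points. An Rbbp6 transcript with a short open reading frame of 124 codons, ENSMUST00000098062.8, held 7.28% ± 2.41 and 4.26% ± 1.38 (difference 3.02 points, two-sided exact permutation test, p = 0.0524, adjusted p = 0.419). Of the 16 transcripts tested, none had an adjusted p under 0.419. Transcripts of a gene share exons, so Salmon's division of reads between them is an estimate.

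**Figure D5:**
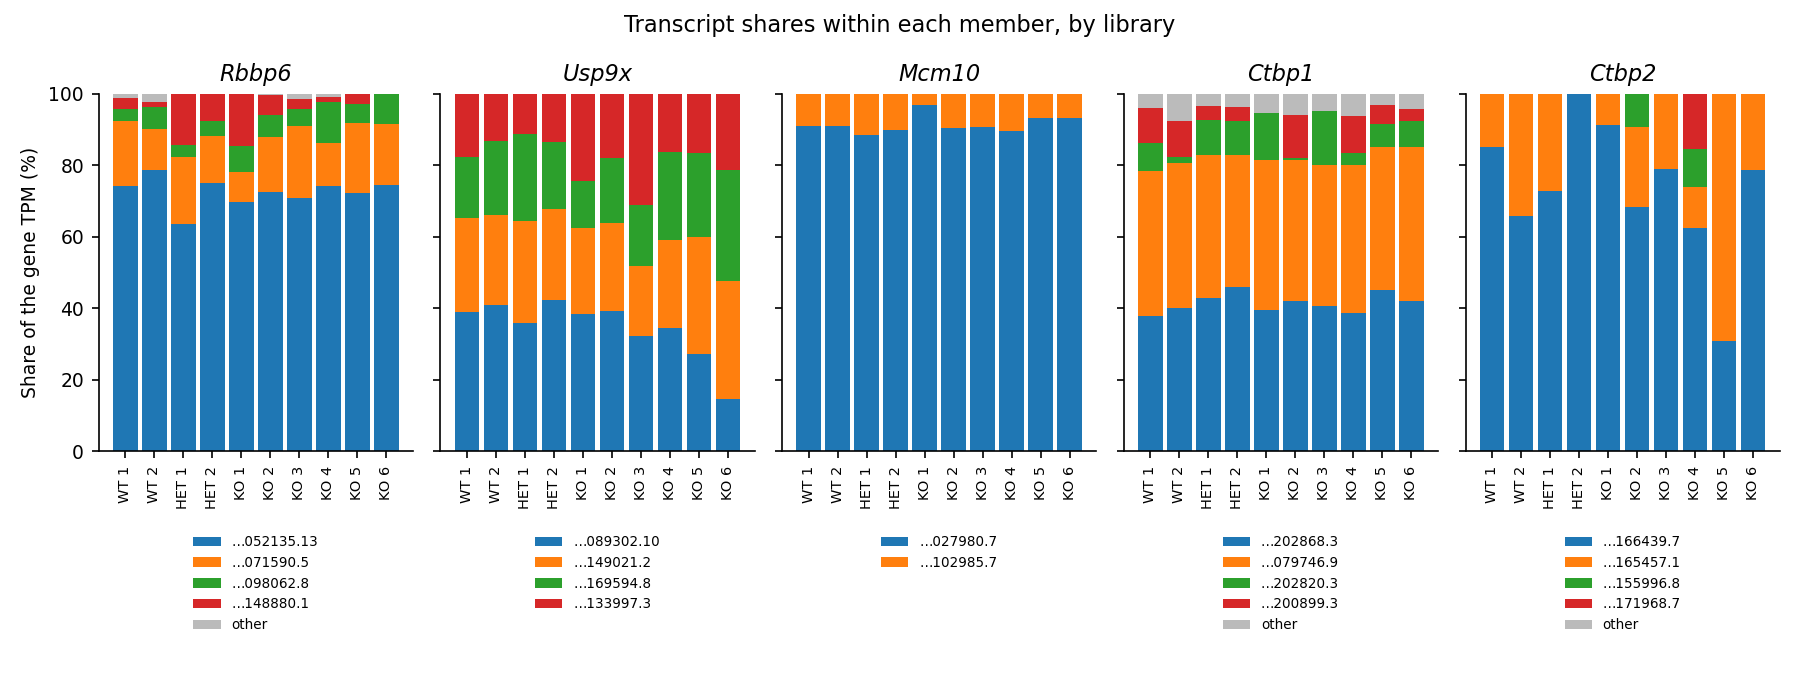
Share of each gene's TPM assigned to its 4 most abundant transcripts (names shortened to their last digits) and to the rest, in each library. Mcm10 and Ctbp1 keep a stable split, the full-length Usp9x share falls to 14.8% in KO replicate 6, and the Ctbp2 split varies from library to library.

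The genes around each member were described by counts, with no test of a list. Over all genes tested between KO and all controls, 0.00749% were called, 6.3% had an edgeR p under 0.05 and the median log2 fold change was 0.02, and the counts below are to be read against these. Of the 31 replication initiation genes, 0 were called in any comparison. Between KO and all controls 11 were higher and 20 lower, with a median log2 fold change of -0.03 against 0.02 over all genes, and between HET and WT 28 were higher and 3 lower, with a median of 0.29 against -0.01. Topbp1, a scaffold that activates replication origins and the checkpoint, had the smallest p of the list between KO and all controls (185.8 ± 39.1 CPM in KO, n = 6, and 256.3 ± 27.1 CPM in controls, n = 4; log2 fold change -0.46, SE 0.152, edgeR adjusted p = 0.744). Mcm6, the most abundant of the list in TPM and a subunit of the helicase, had a log2 fold change of -0.26 (SE 0.141, edgeR adjusted p = 0.744).

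For Rbbp6, 0 of 19 genes of mRNA 3′ end processing were called. Between KO and all controls 4 were higher and 15 lower (median log2 fold change -0.07), and 3 of the lower ones had an edgeR p under 0.05. Between KO and HET 6 of 19 were lower with a p under 0.05, against 10.2% of all genes in either direction. Between KO and WT, however, 0 of 19 had an edgeR p under 0.05, against 2.19% of all genes. In that comparison 8 were higher and 11 lower (median log2 fold change -0.03). Between HET and WT 15 were higher and 4 lower. Of the higher ones 3 had an edgeR p under 0.05, against 6.42% of all genes in either direction. The scaffold gene Sympk had the smallest p between KO and all controls (log2 fold change -0.34, SE 0.136, edgeR adjusted p = 0.744). Pabpn1, the nuclear poly(A) binding protein, was the most abundant (log2 fold change 0.19, SE 0.109, in the same comparison). Of the 4 genes for proteins reported to be bound or ubiquitinated by RBBP6, which include Trp53 and Mdm2, 0 were called, and the most abundant, Ybx1, had a log2 fold change of 0.16 (SE 0.144, edgeR adjusted p = 0.800).

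For Usp9x, 0 of 11 genes for its reported substrates were called, with 3 higher and 8 lower between KO and all controls and a median log2 fold change of -0.05. Between KO and WT 2 were higher and 1 lower at an edgeR p under 0.05, against 2.19% of all genes. Map3k5, a stress-activated kinase, had the smallest p between KO and all controls (log2 fold change -0.40, SE 0.190, edgeR adjusted p = 0.744). In the same comparison Mcl1, the survival factor on which germinal center B cells depend, had a log2 fold change of -0.04 (SE 0.0940, edgeR adjusted p = 0.934). Of its relatives, Usp34 and Usp24 were tested and neither was called, and Usp34 had a log2 fold change of 0.20 (SE 0.245). The Y-linked Usp9y did not pass the filter on low counts.

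For the corepressors, 0 of 15 genes of the CtBP complex were called, with 4 higher and 11 lower between KO and all controls and a median log2 fold change of -0.19. Ehmt2, the histone H3 lysine 9 methyltransferase G9a, was at 82.4 ± 15.1 CPM in KO (n = 6) and 112.2 ± 10.7 CPM in controls (n = 4; log2 fold change -0.44, SE 0.144, edgeR adjusted p = 0.744). Hdac1, the most abundant, had a log2 fold change of 0.00 (95% confidence interval -0.21 to 0.22). Among ZBTB38 and its methyl-CpG binding relatives, Zbtb38 was the 1 of 3 called, and Zbtb4 and Zbtb33 were not. Of 14 oxidative stress genes tested between KO and all controls, a response in which ZBTB38 has been placed, 0 were called, with 9 higher and 5 lower, and Prdx1, a peroxidase, had the smallest p (log2 fold change 0.27, SE 0.149, edgeR adjusted p = 0.744).

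The genes most alike each member over the 10 libraries were found by Pearson's r of log2(CPM + 1) among 11565 genes, as a description. For Mcm10 these were Ercc6l (r = 0.985), a mitotic DNA translocase, Cse1l (0.967), which returns importin alpha to the cytoplasm, and Slc39a11 (0.934). For Usp9x they were Cherp (0.973), Ubr2 (0.973), another ubiquitin ligase, and Sft2d2 (0.971). Rbbp6 was most like Erbb3 (0.963), Tnrc18 (0.944) and Zfp760 (0.942), Ctbp1 most like Trim32 (0.966), RP24-443B5.1 (0.945) and Dpy19l3 (0.918), and Ctbp2 most like Rccd1 (0.952), Tmem88b (0.948) and RP24-443B5.2 (0.937). Each value is among the 3 highest of 11565 for its gene and is no test. Long and short genes deviated in opposite directions within each library, by medians of -0.40 and 0.30 in KO replicate 1. The part of this in the likeness between genes was not tested.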

How the data were processed

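Samples were grouped by the genotype in the labels. Libraries were made by the authors with SMART-Seq v4 and read from both ends, and the authors quantified Gencode vM17 transcripts with Salmon (0.9.1 per the labels, which also list DESeq2 2.11.40.6; options are not given in the sources used here). The authors deposited, per transcript, estimated counts, which are not normalized, and TPM values, which are scaled for transcript length and sum to a fixed total per library. All 64019 transcripts list a coding sequence. Both were summed per gene, and estimated counts were rounded to whole numbers.

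Fits used edgeR 4.0.16 (quasi-likelihood test, TMM, filterByExpr, Benjamini-Hochberg over all genes, threshold 0.1, two-sided) in R 4.3.3. KO against WT (8 libraries) and KO against WT plus HET were fitted on their own libraries, and KO against HET and HET against WT on all 10 with a term per genotype. Folds are first group over second, SE is the absolute log2 fold change over the square root of F, and confidence intervals use the total degrees of freedom of the fit. Shares and ratios were compared with exact permutation tests, and correlations with 100000 permutations. Scripts were tested on simulated data. Positions came from Gencode vM21 and promoter sequences from RefSeq. Alternatives were DESeq2 1.42.0, its size factors, limma 3.58.1 on log2(TPM) with 1 or 0.1 added, length-scaled counts, no filter, a replicate block, other sets of libraries, and each library left out. Leaving out KO replicates 1 and 6, a term for Y-linked transcripts and the long and short transcript classes were added later. P-values measure the spread between mice. Counting limits ignore PCR duplicates.

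The members, gene lists and tests were chosen with earlier results of these data known. Named genes were all members, Zbtb38, and from each list the genes called, the one with the smallest p between KO and all controls and the one with the highest TPM, plus for each member the 3 genes most alike it and its most abundant transcripts. Usp9x and Rbbp6 transcripts with the smallest p and ENSMUST00000169570.7 and ENSMUST00000033269.14 were named after their values were seen. No sequence of the proteins was used here.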

Additional observations from a re-analysis of the deposited data

Results flagged for a closer look

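In 3 of 46 groups of libraries checked, one library lay far from the rest of its group, and chance alone gives about 1 in 20. The log2 ratio of Rbbp6 to Usp9x TPM was 1.189 in ZBTB38 KO replicate 1, with the next KO library at 0.315. The long Ctbp1 transcript ENSMUST00000079746.9 held 36.93% of the gene's TPM in ZBTB38 HET replicate 2, with the next control library at 40.0%. The Ctbp2 transcript ENSMUST00000165457.1 held 69.25% in ZBTB38 KO replicate 5, with the next KO library at 22.1%, in a library with 12.7 estimated counts for the gene.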

How the results depend on the processing

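None of the 5 genes was called in any of 37 refits under other settings or 38 with a library left out. The sign of small log2 fold changes turned in a few. For Mcm10 between KO and WT it was -0.12 in limma on log2(TPM + 1), -0.12 in limma on log2(TPM + 0.1) and -0.015 with a replicate block, and 0.0295 between KO and all controls without KO replicates 1 and 6. For Rbbp6 between KO and HET it was 0.0388 without those libraries, and for Ctbp1 between HET and WT 0.0862 with a term for Y-linked transcripts. The share of ENSMUST00000079746.9 between KO and WT was -0.411 points on counts, and the log2 ratio of Rbbp6 to Usp9x between KO and WT was 0.17 in CPM (0.48 between KO and all controls). The cause was not tested. In limma on log2(TPM + 1) the median over all genes was -0.11 between KO and WT.

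With each library left out in turn, log2 fold changes ran from -0.0382 to 0.12 for Mcm10 between KO and WT, -0.24 to 0.063 for Ctbp1 and -0.16 to 0.0214 for Rbbp6 between KO and HET, and -0.17 to 0.13 for Ctbp1 between HET and WT. The log2 ratio of Rbbp6 to Usp9x ran from -0.0142 to 0.35 (KO and all controls) and -0.39 to 0.19 (KO and WT). That of Ctbp1 to Ctbp2 between KO and all controls ran from -1.36 to -0.66, and without KO replicate 5 it passed the threshold (exact permutation test, adjusted p = 0.0952). Between KO and WT it ran from -0.75 to -0.11 and did not pass (smallest adjusted p = 0.476 in the exact permutation test). Same-numbered libraries did not clearly deviate together (r from -0.01 to 0.13). With 2 libraries in WT and 2 in HET, this check cannot decide whether the numbers pair the mice. The replicate block changed no call of a member. Differences in share that turned sign ran, between KO and all controls, from -1.69 to 0.999 points for ENSMUST00000202868.3, -1.4 to 1.8 for ENSMUST00000202820.3, -4.05 to 0.565 for ENSMUST00000148880.1, -3.63 to 1.4 for ENSMUST00000052135.13, -1.29 to 1.38 for ENSMUST00000071590.5, -2.16 to 11.6 for ENSMUST00000165457.1, -1.01 to 2.56 for ENSMUST00000169594.8 and -1.13 to 1.48 for ENSMUST00000149021.2. Between KO and WT they ran from -0.275 to 5.7 points for ENSMUST00000202820.3, -2.67 to 3.84 for ENSMUST00000071590.5, -8.49 to 10.7 for ENSMUST00000165457.1, -16.6 to 2.55 for ENSMUST00000166439.7 and -0.507 to 2.1 for ENSMUST00000149021.2.

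Counts of all genes called moved with the tool: DESeq2 called 5, 18, 458 and 125 genes and edgeR 1 in each of the 4 comparisons in the order given above. The replicate block gave 6, 0, 4 and 66, and HET and WT alone 523. KO against HET without KO replicates 1 and 6 gave 41, and HET against WT without KO replicate 6 gave 16. Depth limits Ctbp2, with 11.0 to 66.0 estimated counts per library, and with 2 WT and 2 HET mice the spread within those groups is known poorly.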
